A study of Mus musculus with 12 samples.

Results

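Vesicle trafficking was described here through 184 genes that carry membranes and proteins between the organelles of a cell. They were chosen by symbol alone, as genes whose name begins like that of a Rab or Arf GTPase, an Arfgap, a Sec, Cop or Tmed protein, a Golga golgin, a Trappc, Exoc, Ap1 to Ap4 or Vps subunit, an Snx sorting nexin, a Vamp or Stx SNARE or a Syt synaptotagmin. The rule itself uses no measured value, but it was proposed with earlier results of these data known. Each of the 184 genes had 1 probe set among the 9539 genes tested. The mouse gene table holds 283 protein-coding genes with such symbols, of which 183, or 64.7%, were measured here, beside 1 non-coding gene, Rab10os. The others were not analysed here, and since each probe set of the deposited table varies over the 12 arrays by at least 0.51 on the log2 scale, shares of called genes refer to varying genes. A symbol is no proof of function: Rab5if, Sec14l4 and Vps9d1 meet the rule by name.

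The study compared 4 groups of mouse cells by microarray, 3 arrays each. The iPS cells are the line OT#b at passage 10, made with Oct4 and Tet1 on an OG2-GFP/Rosa26-M2rtTA background, so they stand for a single line. The ES cells are the line R1 of strain 129 at passage 20. The day-1 cells are fibroblasts of mice derived from Oct4 and Tet1 iPS cells (the secondary induction system), at passage 3, after 1 day of doxycycline in ES medium. The fibroblasts are passage 3 cells labelled with the same OG2-GFP/Rosa26-M2rtTA background, although the label of the second replicate reads M3rtTA and that of the third M4rtTA. Both pluripotent lines grew on mitomycin C-treated feeder fibroblasts, and a plating step to remove feeders is described for the ES cells. In the pluripotent lines strain, line, passage and medium change with the group and cannot be told apart from it. Day-1 cells and fibroblasts share passage 3, but in the day-1 cells doxycycline, the medium and the mouse of origin change together. Nothing in the labels says that replicates are separate cultures, so each p-value refers to the scatter of these arrays alone, which may be technical.

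Marker levels followed the labels. The mean log2 value of 10 pluripotency genes was 11.42 to 11.47 in iPS cells and 11.89 to 12.02 in ES cells, against 5.89 to 5.95 in day-1 cells and 4.97 to 5.29 in fibroblasts. Of the induced factors, Pou5f1 (Oct4) averaged 12.01 ± 0.04 in iPS cells, 12.36 ± 0.0049 in ES cells and 11.79 ± 0.06 in day-1 cells, against 5.04 ± 0.18 in fibroblasts (SD, n = 3 each). Tet1 averaged 10.25 ± 0.08 in iPS cells, 11.36 ± 0.10 in ES cells and 7.46 ± 0.02 in day-1 cells, against 6.68 ± 0.17 in fibroblasts, a day-1 difference of 0.79 that was under the 2-fold limit. Array medians were 7.98 to 8.06 in iPS cells, 7.89 to 7.98 in ES cells, 8.25 to 8.29 in day-1 cells and 8.25 to 8.29 in fibroblasts.

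Proteins destined for secretion or for membranes enter the endoplasmic reticulum through the Sec61 channel, leave it in vesicles coated with COPII (the Sec23, Sec24, Sec13 and Sec31 proteins), and are returned to it in vesicles coated with COPI. Rab GTPases mark each compartment and recruit tethers, such as the TRAPP, exocyst and GARP complexes, and the SNAREs then fuse the membranes. At the trans-Golgi network and on endosomes, adaptor complexes, sorting nexins, retromer and the ESCRT machinery sort cargo towards the surface, the lysosome or back to the Golgi. Fibroblasts export large amounts of collagen and depend on this early pathway for it, and transcription factors of the unfolded protein response and of lysosome biogenesis are known to act on promoters of such genes.

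Short promoter sequences are shown for members that hold the letters of elements tied to those responses and that changed between cell types. They are from RefSeq on build GRCm38.p6 and run from 250 bases before the annotated start to 50 after it, 5′ to 3′ on the gene's strand. Capitals mark the unfolded protein response element TGACGTGG, on either strand, which 0.676% of the 32851 promoters of the table hold. The endoplasmic reticulum stress elements I and II were also searched, and 0.119% and 0.0365% of these promoters hold them. Among the 140 members with a promoter in the table, 0 hold either stress element. Of the other motifs searched, only the lysosomal element given next is described. The unfolded protein response element TGACGTGG is held by the members Sec16b, Sec23a, Sec24d, Stx5a and Arf1. Promoters of the 4 of these genes that fell in iPS and ES cells, as given further on, are the following, where Stx5a holds the element once on each strand. They lie at chr12:59011968-59012267 on the minus strand (Sec23a), chr3:123267246-123267545 on the plus strand (Sec24d), chr1:157506546-157506845 on the plus strand (Sec16b) and chr19:8741174-8741473 on the plus strand (Stx5a).
Sec23a: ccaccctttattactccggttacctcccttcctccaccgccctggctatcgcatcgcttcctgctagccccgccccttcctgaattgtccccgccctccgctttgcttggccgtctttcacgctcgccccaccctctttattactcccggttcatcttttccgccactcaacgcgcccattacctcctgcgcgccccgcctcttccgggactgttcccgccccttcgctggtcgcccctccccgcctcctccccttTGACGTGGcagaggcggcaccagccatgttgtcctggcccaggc
Sec24d: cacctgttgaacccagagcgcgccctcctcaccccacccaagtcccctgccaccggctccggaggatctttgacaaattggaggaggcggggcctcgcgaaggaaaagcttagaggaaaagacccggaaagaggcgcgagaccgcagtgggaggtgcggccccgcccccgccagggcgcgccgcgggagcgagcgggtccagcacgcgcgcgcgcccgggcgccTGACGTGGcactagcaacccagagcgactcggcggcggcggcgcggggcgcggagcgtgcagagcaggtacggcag
Sec16b: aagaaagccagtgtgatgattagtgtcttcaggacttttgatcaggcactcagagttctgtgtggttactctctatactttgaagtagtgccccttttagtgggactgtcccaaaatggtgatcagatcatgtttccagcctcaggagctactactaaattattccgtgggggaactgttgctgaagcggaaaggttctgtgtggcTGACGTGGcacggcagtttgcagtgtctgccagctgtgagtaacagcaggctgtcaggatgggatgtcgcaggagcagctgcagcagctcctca
Stx5a: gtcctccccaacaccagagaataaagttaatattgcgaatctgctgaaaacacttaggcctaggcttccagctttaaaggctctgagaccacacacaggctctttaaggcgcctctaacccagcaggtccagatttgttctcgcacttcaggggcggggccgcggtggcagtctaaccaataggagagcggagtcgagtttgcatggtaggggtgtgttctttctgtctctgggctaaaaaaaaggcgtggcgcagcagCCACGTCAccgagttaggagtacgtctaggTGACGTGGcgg
In Sec24d the element begins 26 bases before the start and in Sec16b 44 bases before it, while in Sec23a 6 bases lie between the start and the element and in Stx5a 9 and 39 bases.

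The lysosomal CLEAR element, the E-box CACGTG with GT before it and AC after it, was present in 0.326% of the promoters, and among members in those of Rab5a, Vps16, Rab21, Rab24 and Vps26a. Rab5a (chr17:53478984-53479283, plus strand) and Vps16 (chr2:130424070-130424369, plus strand), which rose in iPS cells, and Rab21 (chr10:115315542-115315841, minus strand), a GTPase of early endosomes that fell in both lines, are shown with the element in capitals.
Rab5a: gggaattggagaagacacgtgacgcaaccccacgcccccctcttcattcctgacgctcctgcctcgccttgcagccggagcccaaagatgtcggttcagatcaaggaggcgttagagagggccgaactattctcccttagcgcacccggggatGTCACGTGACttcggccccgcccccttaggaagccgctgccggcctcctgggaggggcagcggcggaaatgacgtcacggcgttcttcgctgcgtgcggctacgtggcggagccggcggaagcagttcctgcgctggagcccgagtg
Vps16: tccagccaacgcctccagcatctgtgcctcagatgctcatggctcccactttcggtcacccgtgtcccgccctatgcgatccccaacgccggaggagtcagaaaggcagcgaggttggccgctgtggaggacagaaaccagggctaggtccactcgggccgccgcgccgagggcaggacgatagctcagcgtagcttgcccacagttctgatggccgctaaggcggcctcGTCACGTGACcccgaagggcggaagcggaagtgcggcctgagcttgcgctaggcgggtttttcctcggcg
Rab21: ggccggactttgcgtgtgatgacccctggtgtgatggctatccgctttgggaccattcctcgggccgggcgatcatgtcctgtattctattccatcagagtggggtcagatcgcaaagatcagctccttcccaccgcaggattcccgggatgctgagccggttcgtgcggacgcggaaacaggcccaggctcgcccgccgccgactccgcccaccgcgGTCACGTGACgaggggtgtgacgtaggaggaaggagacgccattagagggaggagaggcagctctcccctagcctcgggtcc
The element begins 97 bases before the start in Rab5a, 20 bases before it in Vps16 and 32 bases before it in Rab21. Rab21 fell by 1.25 in iPS cells, which was not called with centred arrays, and by 1.64 in ES cells. Rab24 and Vps26a were not called against fibroblasts in either line, nor was Arf1 of the list above. Such a match is a description of the letters and shows neither binding nor use. Since promoters were at hand for 140 of 184 members, no share over the members is given.

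More trafficking genes were lower than higher in the pluripotent lines relative to fibroblasts. A gene was called where its limma adjusted p, over 9539 genes, was under 0.05 and its group means differed by at least 1 on the log2 scale, which is 2-fold. In iPS cells 15 of 184 members were called higher and 63 lower than in fibroblasts, or 8.15% and 34.2%, beside 21.8% and 29.6% of all genes. In ES cells 16 were called higher and 80 lower, or 8.70% and 43.5%, beside 23.4% and 32.1% of all genes. At the first day of induction 3 members were higher and 4 lower than in fibroblasts, 1.63% and 2.17%, beside 3.46% and 4.33% of all genes. The members' median per array was 8.37 to 8.48 in iPS cells, 8.25 to 8.36 in ES cells, 8.89 to 8.99 in day-1 cells and 9.12 to 9.21 in fibroblasts. Lower values in such bulk samples cannot tell fewer cells of a type apart from less RNA per cell.

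All genes together were also lower in the pluripotent arrays, by a median of 0.35 in each line, so the count of lower calls depends on the scale. With each array centred on a common median, the calls became 25 higher and 43 lower in iPS cells (13.6% and 23.4%, beside 29.0% and 22.8% of all genes). In ES cells they became 28 higher and 45 lower (15.2% and 24.5%, beside 33.8% and 23.7%). On that scale the share of members that fell lies near that of all genes, and the share that rose lies below it. The members' median difference from fibroblasts was -0.69 in iPS cells and -0.87 in ES cells, which is 0.35 and 0.53 below the median of all genes. Centring shifts every gene of an array alike and cannot change this distance. After quantile normalization the members' median was -0.47 in iPS cells and -0.58 in ES cells, beside -0.18 and -0.12 for all genes. In day-1 cells centring left the members' counts at 3 and 4, beside 3.46% and 4.34% of all genes. Counts with centred arrays are therefore given beside each group of genes that follows. Members named without a call, as partners of a called one, were chosen after their values were seen. Those ranked highest or lowest per comparison were chosen among called members without overlap between the groups compared. A lack of overlap in that comparison therefore follows from the choice.

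**Figure D1:**
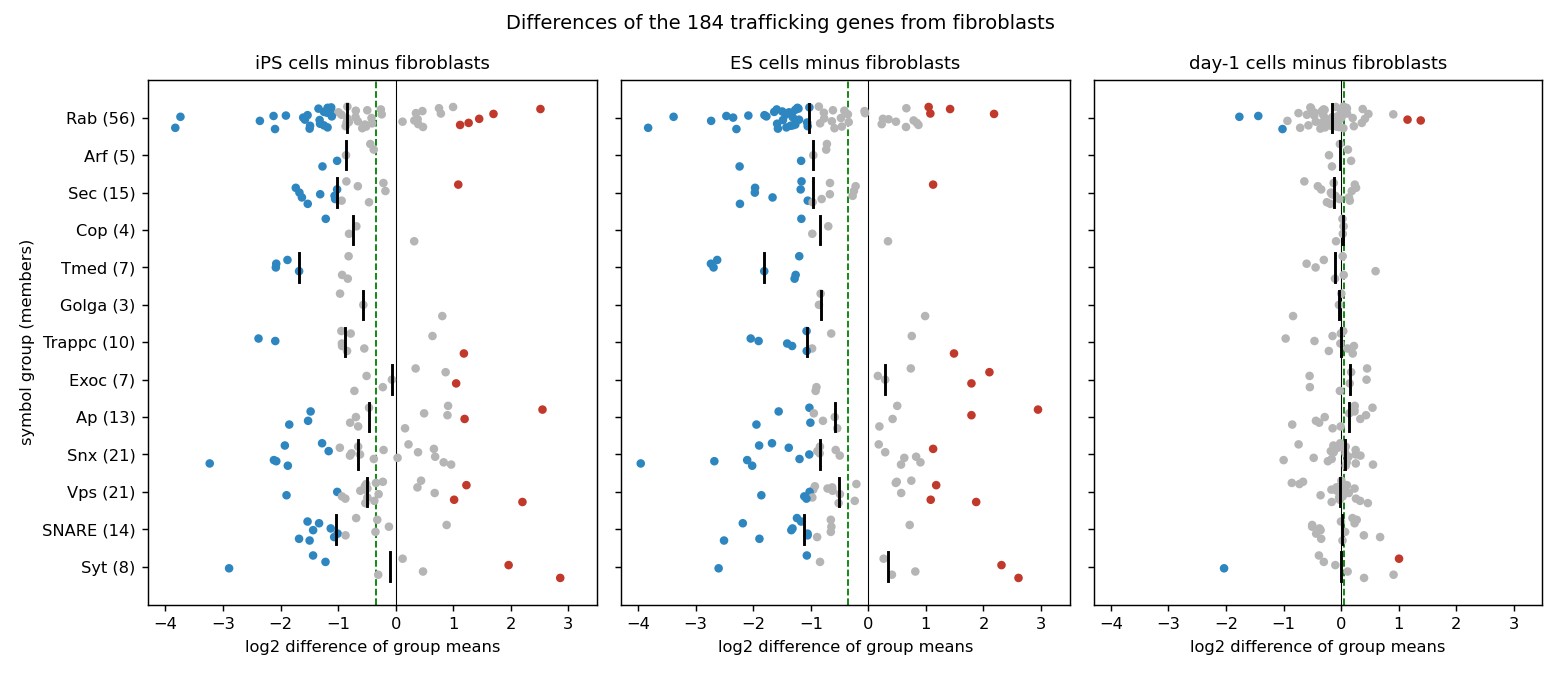
Each point is 1 of the 184 trafficking genes, placed by its log2 difference of group means from fibroblasts (x axis) in iPS cells, ES cells and day-1 cells, and by symbol group (y axis, number of members in brackets, SNARE for Vamp and Stx). Red points were called higher, blue points lower and grey points were not called, black bars are group medians and the green dashed line is the median of all genes. The Tmed group lies wholly below 0 in iPS and ES cells, the Syt group spreads to both sides, and the day-1 panel has 7 coloured points.

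Most Sec members encode proteins of the early secretory pathway. Of the 15, 8 fell and 1 rose in iPS cells, and 7 fell and 1 rose in ES cells. The lower ones are 53.3% and 46.7%, beside 29.6% and 32.1% of all genes. With centred arrays 5 fell in iPS cells, or 33.3% beside 22.8% of all genes, and 4 in ES cells, or 26.7% beside 23.7%, with 1 higher in each. Sec63, which brings the chaperone BiP to the Sec61 channel, averaged 9.11 ± 0.03 in iPS cells, 8.40 ± 0.09 in ES cells and 10.45 ± 0.06 in day-1 cells, against 10.63 ± 0.10 in fibroblasts. Its difference from fibroblasts was -1.53 ± 0.07 (SE) in iPS cells and -2.23 ± 0.07 in ES cells (limma adjusted p = 2.7e-10 and 5.9e-12). Sec61a1, the pore subunit of that channel, averaged 11.24 ± 0.06 in iPS cells, 11.13 ± 0.06 in ES cells and 12.33 ± 0.03 in day-1 cells, against 12.18 ± 0.02 in fibroblasts, and its difference of -1.05 in ES cells passed the 2-fold limit while that of -0.94 in iPS cells did not. Sec11c, a signal peptidase subunit, fell by 1.16 in ES cells and differed by -0.86 in iPS cells. With centred arrays neither Sec61a1 nor Sec11c was called in ES cells (-0.71 and -0.82).

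Of the COPII coat, Sec23a and Sec24d fell in both lines. Sec23a, the inner coat subunit that stimulates the GTPase Sar1, read 9.86, 9.74 and 9.89 in iPS, 9.51, 9.55 and 9.53 in ES and 11.37, 11.27 and 11.33 in day-1 cells, against 11.45, 11.48 and 11.58 in fibroblasts. All pluripotent arrays lay below all others for it, and it was 3.19-fold lower in iPS cells than in fibroblasts. Sec24d, a cargo-binding subunit, read 8.73, 8.79 and 8.86 in iPS, 8.68, 8.71 and 8.87 in ES and 10.54, 10.56 and 10.57 in day-1 cells, against 10.40, 10.44 and 10.42 in fibroblasts, again with no overlap between pluripotent and fibroblast arrays and a difference of -1.63 in iPS cells and -1.66 in ES cells. Sec16b, a scaffold of the sites where COPII vesicles form, read 6.15, 5.81 and 5.63 in iPS, 5.81, 5.49 and 5.59 in ES and 7.91, 7.71 and 7.96 in day-1 cells, against 7.59, 7.44 and 7.77 in fibroblasts. Its day-1 mean stood highest, with arrays that overlapped those of fibroblasts, and iPS cells differed from day-1 cells by -2.00 ± 0.13 (SE, limma adjusted p = 8.6e-09). These 3 genes, with Stx5a below, are the ones whose promoters are shown with TGACGTGG.

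The other Sec24 subunits were lower in iPS cells than in ES cells by less than 2-fold. Sec24a averaged 8.30 ± 0.14 in iPS cells, 8.94 ± 0.18 in ES cells and 9.45 ± 0.13 in day-1 cells, against 9.61 ± 0.12 in fibroblasts, and was called lower in iPS cells, at -1.31, and not in ES cells, at -0.67. Sec24b averaged 8.78 ± 0.14 in iPS cells, 9.57 ± 0.08 in ES cells and 9.74 ± 0.07 in day-1 cells, against 9.84 ± 0.04 in fibroblasts, and its direct difference between iPS and ES cells was -0.79 ± 0.08 (SE, limma adjusted p = 4.3e-06), under the 2-fold limit. Sec31a, of the outer coat, fell by 1.05 in iPS cells and differed by -0.81 in ES cells, while Sec13 of the same coat layer, which also serves the nuclear pore, differed by -0.21 and -0.67. Sec22b, a SNARE of transport between endoplasmic reticulum and Golgi, fell by 1.02 in iPS cells and by 1.18 in ES cells. With centred arrays Sec22b was not called in either line, nor were Sec24b and Sec31a in iPS cells (-0.81 and -0.80). Sec14l4, a Sec14-like lipid-binding protein and no coat subunit, was the 1 Sec member that rose, by 1.09 in iPS cells and 1.13 in ES cells.

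The Tmed genes, which encode the p24 cargo receptors that cycle between endoplasmic reticulum and Golgi, lay lower together. All 7 differences were below 0 in both lines, also with centred arrays. In iPS cells 4 of 7 were called lower and in ES cells 7 of 7 (4 of 7 in each with centred arrays). Of all genes 29.6% and 32.1% were called lower, and 22.8% and 23.7% with centred arrays. Tmed3 read 7.32, 7.27 and 7.16 in iPS, 6.43, 6.85 and 6.49 in ES and 8.76, 8.67 and 8.76 in day-1 cells, against 9.29, 9.34 and 9.35 in fibroblasts. ES arrays were lowest, iPS arrays next, and day-1 arrays lay just below fibroblasts with no overlap. Tmed5 read 7.44, 7.46 and 7.49 in iPS, 7.11, 7.53 and 7.37 in ES and 9.69, 9.72 and 9.84 in day-1 cells, against 9.27, 8.88 and 9.29 in fibroblasts. Here the day-1 arrays were highest, above every fibroblast array, and iPS cells differed from day-1 cells by -2.28 ± 0.12 (SE, limma adjusted p = 8.2e-10). Tmed4 fell by 2.08 in iPS cells and by 2.69 in ES cells, and Tmed2, whose product pairs with that of Tmed10, fell by 1.88 and by 2.63. Tmed7, Tmed9 and Tmed10 fell by 1.26, 1.28 and 1.20 in ES cells, and with centred arrays these 3 were no longer called.

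Copa, the alpha subunit of the COPI coat, fell by 1.22 in iPS cells and 1.16 in ES cells but was not called in either with centred arrays, and the other 3 Cop members (Cope, Copg1 and Copg2) were not called. Of the 5 Arf members, the Golgi GTPase-activating proteins Arfgap1 and Arfgap3 fell in both lines, Arfgap1 not with centred arrays. Arfgap3 averaged 8.40 ± 0.02 in iPS cells, 7.43 ± 0.24 in ES cells and 9.51 ± 0.10 in day-1 cells, against 9.67 ± 0.10 in fibroblasts, so its ES value lay well below its iPS value, with a difference between the lines of 0.97 ± 0.11 (SE), just short of the 2-fold limit. Arf1, the GTPase that recruits COPI, differed by -0.44 in iPS cells and -0.72 in ES cells. Of the 3 golgins, 0 were called by limma against fibroblasts on the deposited scale (3 at an unadjusted p under 0.05 in each line). Golga4, a tether of the trans-Golgi, averaged 8.56 ± 0.07 in iPS cells, 8.74 ± 0.05 in ES cells and 6.92 ± 0.12 in day-1 cells, against 7.75 ± 0.10 in fibroblasts, and was called higher in iPS cells than in day-1 cells, at 1.64 ± 0.08 (SE), where the day-1 arrays were the lowest of all 12. With centred arrays it was also called higher than in fibroblasts in both lines.

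The 10 subunits of TRAPP, a tether and Rab exchange factor of the early Golgi, held 2 that fell and 1 that rose in iPS cells, and 6 that fell and 1 that rose in ES cells (2 and 1, and 3 and 2, with centred arrays). Trappc2, whose human counterpart is mutated in a skeletal dysplasia with defective collagen export, read 6.83, 6.21 and 7.27 in iPS, 6.43, 7.69 and 7.21 in ES and 8.12, 8.31 and 8.14 in day-1 cells, against 9.17, 9.09 and 9.20 in fibroblasts. All pluripotent arrays lay below the others, but they spread by up to 0.63 (SD), the widest among the members described with single arrays. Trappc2l, its paralogue in the complex, averaged 7.89 ± 0.07 in iPS cells, 8.07 ± 0.09 in ES cells and 9.52 ± 0.03 in day-1 cells, against 9.98 ± 0.02 in fibroblasts, and fell by 2.09 in iPS cells and 1.91 in ES cells. Trappc8, of the TRAPP form that acts in autophagy, averaged 9.33 ± 0.06 in iPS cells, 9.63 ± 0.05 in ES cells and 8.35 ± 0.02 in day-1 cells, against 8.14 ± 0.13 in fibroblasts, and rose by 1.19 in iPS cells and by 1.49 in ES cells.

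**Figure D2:**
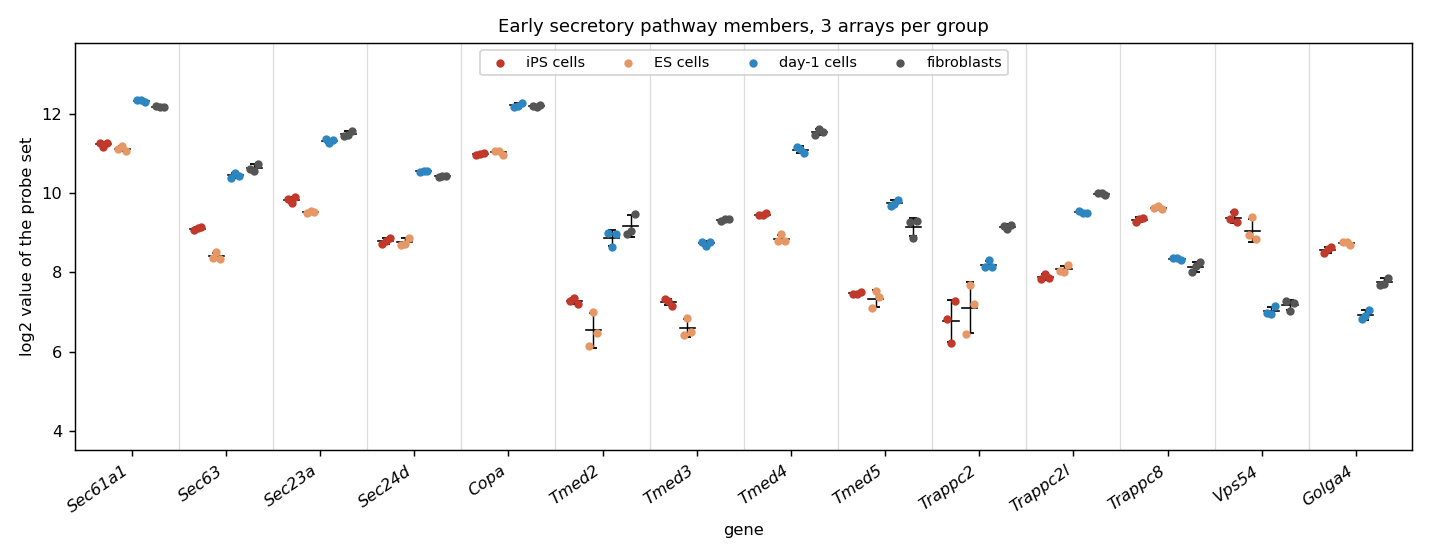
Log2 values (y axis) of 14 members of the early secretory pathway and Golgi tethering (x axis) in 3 arrays each of iPS cells, ES cells, day-1 cells and fibroblasts; points are arrays, horizontal bars means and error bars SD. Values of different genes come from different probe sets and are not comparable in height. From Sec61a1 to Trappc2l the pluripotent arrays lie below the others, and for Trappc8, Vps54 and Golga4 they lie above.

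Partner genes of the same steps, from lists chosen with earlier results known, are given beside the members. Of 35 measured genes of transport between endoplasmic reticulum and Golgi that are not members, 16 fell and 1 rose in iPS cells, and 19 fell and 1 rose in ES cells (12 and 15 fell with centred arrays). Their median difference was -0.89 in iPS cells and -1.05 in ES cells, beside -0.35 for all genes in each. The lower ones are 45.7% and 54.3%, beside 29.6% and 32.1% of all genes (34.3% and 42.9%, beside 22.8% and 23.7%, with centred arrays). Creb3l1, a transcription factor that in mouse drives collagen secretion in bone, averaged 7.18 ± 0.13 in iPS cells, 7.29 ± 0.16 in ES cells and 9.84 ± 0.15 in day-1 cells, against 10.50 ± 0.12 in fibroblasts. Creb3l2, its relative that controls Sec23a in mouse cartilage, averaged 6.97 ± 0.13 in iPS cells, 6.38 ± 0.33 in ES cells and 9.98 ± 0.02 in day-1 cells, against 10.04 ± 0.08 in fibroblasts, and Kdelr3, a retrieval receptor for endoplasmic reticulum proteins, averaged 8.92 ± 0.13 in iPS cells, 8.70 ± 0.12 in ES cells and 11.63 ± 0.03 in day-1 cells, against 11.59 ± 0.19 in fibroblasts. All 3 passed the test in both lines, with differences from fibroblasts between -3.66 and -2.68. Of 18 measured genes of the translocon and signal peptide processing, 6 fell in iPS cells and 7 in ES cells with 0 higher in either by limma (2 and 3 at an unadjusted p under 0.05). With centred arrays 3 and 4 fell and 1 rose in ES cells. The 6 that fell in iPS cells are 33.3%, beside 29.6% of all genes, and the 3 with centred arrays 16.7%, beside 22.8%. The lowest difference was that of Tram2, a translocon protein used in collagen synthesis, at -3.12 in iPS cells and -3.16 in ES cells.

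Rab genes, the largest group with 56 members, held 23 that fell and 5 that rose in iPS cells and 29 that fell and 4 that rose in ES cells. With centred arrays these became 14 and 8 in iPS cells and 19 and 8 in ES cells. On the deposited scale 41.1% and 51.8% were lower, beside 29.6% and 32.1% of all genes. The higher ones were 8.93% and 7.14%, beside 21.8% and 23.4%. With centred arrays the lower share in iPS cells lay only slightly above the 22.8% of all genes. In ES cells it was 33.9%, beside 23.7%. The higher share was 14.3% in each line on that scale, beside 29.0% and 33.8% of all genes. Rab7b, which acts between late endosomes and the trans-Golgi, read 5.08, 5.02 and 5.03 in iPS, 4.95, 5.06 and 5.12 in ES and 8.28, 8.13 and 8.07 in day-1 cells, against 8.77, 8.93 and 8.91 in fibroblasts. Pluripotent arrays of both lines sat together, 14.2-fold below fibroblasts in iPS cells, and day-1 arrays lay between, below every fibroblast array. Rab32, of lysosome-related organelles and mitochondria, read 6.38, 6.77 and 5.68 in iPS, 6.67, 6.66 and 6.57 in ES and 8.36, 8.11 and 8.29 in day-1 cells, against 10.17, 9.96 and 9.93 in fibroblasts. Its groups fell apart without overlap into pluripotent, day-1 and fibroblast levels, and the iPS arrays spread the most. Rab3c, of regulated exocytosis, read 4.65, 4.78 and 4.44 in iPS, 4.19, 4.07 and 4.49 in ES and 5.94, 6.24 and 5.97 in day-1 cells, against 6.99, 6.84 and 7.11 in fibroblasts, with day-1 arrays between fibroblasts and both lines and no overlap with either.

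Beside Rab7b and Rab32, which are known from macrophages and other cells rich in lysosomes, macrophage markers were followed. For 9 of 10 measured, the mean log2 value was 6.20 to 6.28 in iPS cells, 6.14 to 6.23 in ES cells, 7.10 to 7.28 in day-1 cells and 7.35 to 7.60 in fibroblasts. Of these 9, 1 was called higher and 5 lower in each line than in fibroblasts, and 1 higher and 3 lower in day-1 cells. Lyz2, lower in all 3, averaged 5.65 ± 0.35 in iPS cells, 4.85 ± 0.15 in ES cells and 9.21 ± 0.11 in day-1 cells, against 10.24 ± 0.20 in fibroblasts, whereas Laptm5, the 1 that was higher in both lines, averaged 10.19 ± 0.10 in iPS cells, 10.11 ± 0.20 in ES cells and 8.18 ± 0.15 in day-1 cells, against 7.58 ± 0.20 in fibroblasts, and C1qb was the 1 higher in day-1 cells. The part of such cells in the Rab7b and Rab32 values was not tested.

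Rab1b, needed for transport to the Golgi, averaged 10.32 ± 0.06 in iPS cells, 9.97 ± 0.09 in ES cells and 11.52 ± 0.02 in day-1 cells, against 11.46 ± 0.09 in fibroblasts, and fell by 1.14 in iPS cells and 1.50 in ES cells. Rab2a and Rab2b, of the same route, fell by 1.53 and 1.91 in iPS cells and by 1.81 and 2.09 in ES cells. Rab30, a Golgi GTPase, and Rab9, of the route from late endosomes to the Golgi, fell by 2.12 and 2.10 in iPS cells and by 2.47 and 2.29 in ES cells. Rab7, the general late endosome GTPase, fell by 1.18 and 1.42, and Rab34, known from cilium formation, by 1.61 and 2.35. Rab11a and Rab11b of recycling endosomes fell by 1.12 and 1.18 in iPS cells and were not called in either line with centred arrays. Rab1b and Rab7 were not called in iPS cells on that scale (-0.89 and -0.93).

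Rab27a, which docks lysosome-related organelles and secretory granules at the membrane, read 7.73, 7.66 and 7.67 in iPS, 8.19, 7.91 and 8.41 in ES and 6.52, 6.42 and 6.44 in day-1 cells, against 5.93, 6.19 and 5.84 in fibroblasts. ES arrays were highest, and neither line overlapped day-1 cells or fibroblasts. Rab11fip4, an effector that links Rab11 to the midbody, read 8.07, 7.99 and 8.08 in iPS, 7.004, 6.87 and 6.98 in ES and 5.79, 6.07 and 5.86 in day-1 cells, against 5.57, 5.57 and 5.45 in fibroblasts, where iPS arrays were highest, ES arrays next and fibroblasts lowest without overlap. Rab38, of pigment and lung granules, rose by 1.45 in iPS cells and differed by 0.25 in ES cells. Rab3ip, the exchange factor of Rab8 in cilium formation, rose by 1.27 in iPS cells and differed by 0.84 in ES cells. Rab25, an epithelial relative of Rab11, rose by 1.08 in ES cells, and the opposite-strand transcript Rab10os by 1.05. The labels do not say whether the probe set of Rab10os reads 1 strand, so its signal cannot be told apart from those of an overlapping gene.

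Genes that modify Rabs, again from a list chosen with results known, were called about as often as all genes on the deposited scale. Of 26 measured, 5 rose and 8 fell in iPS cells (19.2% and 30.8%, beside 21.8% and 29.6%). In ES cells 5 rose and 9 fell (19.2% and 34.6%, beside 23.4% and 32.1%). With centred arrays 7 rose and 8 fell in iPS cells (26.9% and 30.8%, beside 29.0% and 22.8%). On that scale 7 rose and 7 fell in ES cells (26.9% each, beside 33.8% and 23.7%). Rabggtb, the catalytic subunit of the enzyme that attaches lipid to Rabs, averaged 11.26 ± 0.01 in iPS cells, 11.29 ± 0.17 in ES cells and 8.63 ± 0.06 in day-1 cells, against 8.62 ± 0.05 in fibroblasts, and rose by 2.64 in iPS cells and 2.67 in ES cells. The exchange factors Dennd4a and Rin2 fell in both lines, with differences of -3.25 and -3.10 in iPS cells and of -2.60 and -2.75 in ES cells.

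Sorting nexins bend and sort endosomal membrane. In iPS cells 7 of 21 were lower and 0 higher by limma (14 and 6 at an unadjusted p under 0.05), while with centred arrays 2 were higher and 6 lower. The lower ones are 33.3%, near the 29.6% of all genes, and 28.6% with centred arrays, beside 22.8%. In ES cells 9 fell and 1 rose (7 and 3 with centred arrays). There 42.9% were lower, beside 32.1% of all genes, and 33.3% with centred arrays, beside 23.7%. Snx7 read 7.22, 7.18 and 7.15 in iPS, 6.24, 6.64 and 6.50 in ES and 10.67, 10.67 and 10.67 in day-1 cells, against 10.47, 10.35 and 10.42 in fibroblasts. It showed the lowest difference of any member in ES cells, at -3.96 or 15.5-fold, and here the day-1 arrays lay just above the fibroblasts. Snx33 and Snx9, which join endocytic membrane to actin, fell by 2.07 and 1.87 in iPS cells and by 2.68 and 2.02 in ES cells. Snx12, a close relative of the retromer partner Snx3, fell by 1.93 and 1.90, and Snx32, a relative of Snx5, by 2.12 and 2.11. The tubule-forming partners of retromer split: Snx1 fell by 1.28 in iPS cells and 1.67 in ES cells, whereas Snx5 differed by 0.83 and 0.91 and Snx2 by 0.39 and 0.29, under the 2-fold limit. Snx16 was the 1 sorting nexin that rose, by 1.13 in ES cells.

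Vps genes moved in both directions. Of 21, 3 rose and 2 fell in iPS cells (14.3% and 9.52%, beside 21.8% and 29.6% of all genes). In ES cells 3 rose and 4 fell (14.3% and 19.0%, beside 23.4% and 32.1%). With centred arrays the counts were 3 and 1, and 4 and 1, and these shares too lay below those of all genes. Vps54, a subunit of the GARP tether that returns vesicles from endosomes to the trans-Golgi, read 9.35, 9.53 and 9.27 in iPS, 8.95, 9.38 and 8.83 in ES and 6.97, 6.94 and 7.14 in day-1 cells, against 7.28, 7.03 and 7.24 in fibroblasts. No pluripotent array came near the others, and the rise of 2.20 in iPS cells is 4.60-fold. Vps52, another GARP subunit, differed by -0.37 and -0.24 and was not called. Vps16, a core subunit of the HOPS and CORVET tethers of lysosomes and endosomes, averaged 9.62 ± 0.0074 in iPS cells, 9.57 ± 0.04 in ES cells and 8.49 ± 0.10 in day-1 cells, against 8.39 ± 0.06 in fibroblasts, and rose by 1.23 in iPS cells and 1.18 in ES cells. Vps39, specific to HOPS, differed by -0.49 and -0.97. Vps37a of ESCRT-I, the complex that gathers ubiquitinated cargo, fell by 1.90 and 1.86. Of the retromer core, Vps29 fell by 1.02 in each line and was not called with centred arrays, while Vps35 differed by 0.68 and 0.57.

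SNAREs, which fuse vesicles with their target, fell in 8 of 14 cases in iPS cells and 9 of 14 in ES cells, with 0 higher in either by limma (1 in each at an unadjusted p under 0.05). The 8 and 9 that fell are 57.1% and 64.3%, beside 29.6% and 32.1% of all genes. With centred arrays 5 and 3 fell and 1 rose in each. The 5 in iPS cells are 35.7%, beside 22.8%, but the 3 in ES cells are 21.4%, below the 23.7% of all genes. Vamp8, of endosomes and secretory granules, read 8.20, 8.20 and 8.36 in iPS, 7.09, 7.40 and 7.23 in ES and 9.78, 9.78 and 9.76 in day-1 cells, against 9.78, 9.71 and 9.76 in fibroblasts. Day-1 and fibroblast arrays coincided, iPS arrays lay below them and ES arrays lower still. Vamp7, of late endosomes and lysosomes, averaged 8.38 ± 0.06 in iPS cells, 8.17 ± 0.09 in ES cells and 9.72 ± 0.05 in day-1 cells, against 10.06 ± 0.14 in fibroblasts, and fell by 1.68 in iPS cells and 1.89 in ES cells. Stx2, a syntaxin of the cell surface, fell by 1.33 and 2.18, and Stx17, of autophagosomes, by 1.53 and 1.17, the ES value not called with centred arrays. Stx5a, the Golgi syntaxin whose promoter is shown with TGACGTGG, averaged 9.26 ± 0.04 in iPS cells, 9.07 ± 0.11 in ES cells and 10.01 ± 0.11 in day-1 cells, against 10.38 ± 0.01 in fibroblasts, and fell by 1.13 and 1.32, which was not called with centred arrays. Stx3, an apical surface syntaxin of epithelia, ran the other way, at 8.44 ± 0.13 in iPS cells, 8.27 ± 0.35 in ES cells and 7.05 ± 0.10 in day-1 cells, against 7.55 ± 0.05 in fibroblasts; it was called higher in iPS cells than in day-1 cells, at 1.39 ± 0.14 (SE), and with centred arrays also above fibroblasts.

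Syt9, a calcium sensor of fast exocytosis, read 8.40, 8.39 and 8.55 in iPS, 8.24, 8.20 and 8.15 in ES and 6.21, 5.97 and 5.78 in day-1 cells, against 5.58, 6.01 and 5.17 in fibroblasts. Both lines stood clear of the other arrays, which spread widely among fibroblasts, and the iPS rise was 7.26-fold (2.86 ± 0.17, SE, limma adjusted p = 1.8e-09). Syt14, a relative without the calcium-binding residues, read 7.26, 7.24 and 7.47 in iPS, 7.68, 7.81 and 7.54 in ES and 5.23, 5.56 and 4.99 in day-1 cells, against 5.29, 5.44 and 5.36 in fibroblasts, with the same separation. Syt17 went the other way, at 6.31, 6.16 and 5.92 in iPS, 6.57, 6.43 and 6.26 in ES and 6.96, 7.02 and 6.99 in day-1 cells, against 9.13, 8.94 and 9.01 in fibroblasts, and Syt11 fell by 1.44 and 1.07, the ES value not called with centred arrays. Of the 8 synaptotagmins 2 thus rose and 3 fell in iPS cells, and 2 rose and 2 fell in ES cells (2 and 2, and 3 and 1, with centred arrays). Of the 7 exocyst genes 0 fell in either line by limma (3 and 2 at an unadjusted p under 0.05), beside 29.6% and 32.1% of all genes. In iPS cells 1 rose and in ES cells 2 did (14.3% and 28.6%, beside 21.8% and 23.4%). With centred arrays 2 and 3 rose (28.6% and 42.9%, beside 29.0% and 33.8%). Exoc6 averaged 7.50 ± 0.07 in iPS cells, 8.24 ± 0.14 in ES cells and 6.60 ± 0.09 in day-1 cells, against 6.45 ± 0.04 in fibroblasts, and rose by 1.05 in iPS cells and 1.79 in ES cells. Exoc3l, a relative of the subunit Exoc3, read 7.11, 6.98 and 6.99 in iPS, 8.11, 8.30 and 8.38 in ES and 6.40, 6.35 and 6.25 in day-1 cells, against 5.996, 6.41 and 6.06 in fibroblasts, where only ES cells passed the test against fibroblasts.

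Adaptor complex genes, of AP-1 to AP-4, held 2 that rose and 3 that fell among 13 in iPS cells, and 2 and 4 in ES cells. The shares are 15.4% and 23.1%, beside 21.8% and 29.6% of all genes, and 15.4% and 30.8%, beside 23.4% and 32.1%. With centred arrays the counts were 4 and 3, and 2 and 2. These are 30.8% and 23.1% in iPS cells, beside 29.0% and 22.8% of all genes. In ES cells they are 15.4% each, beside 33.8% and 23.7%. Ap1m2, the medium subunit of the epithelial form of AP-1, read 7.68, 7.63 and 7.83 in iPS, 8.20, 7.76 and 8.37 in ES and 5.37, 5.42 and 5.38 in day-1 cells, against 4.96, 5.52 and 5.01 in fibroblasts. No array of either line overlapped the others, and the ES rise was 7.72-fold. Ap3b2, a subunit known from neurons, rose by 1.20 in iPS cells and differed by 0.42 in ES cells. Ap3s1 and Ap3m1 belong to AP-3, which sends cargo to lysosomes. Ap3s1 fell by 1.85 in iPS cells and 1.95 in ES cells. Ap3m1 fell by 1.52 in iPS cells and differed by -0.79 in ES cells. Ap1m2 and Rab25 are known from epithelia. The mean log2 value of 7 epithelial markers was 8.74 to 8.90 in iPS cells, 8.84 to 8.96 in ES cells, 5.82 to 6.03 in day-1 cells and 5.61 to 5.88 in fibroblasts; 7 of 7 were called higher in each line, and their part in the Ap1m2 values was not tested.

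**Figure D3:**
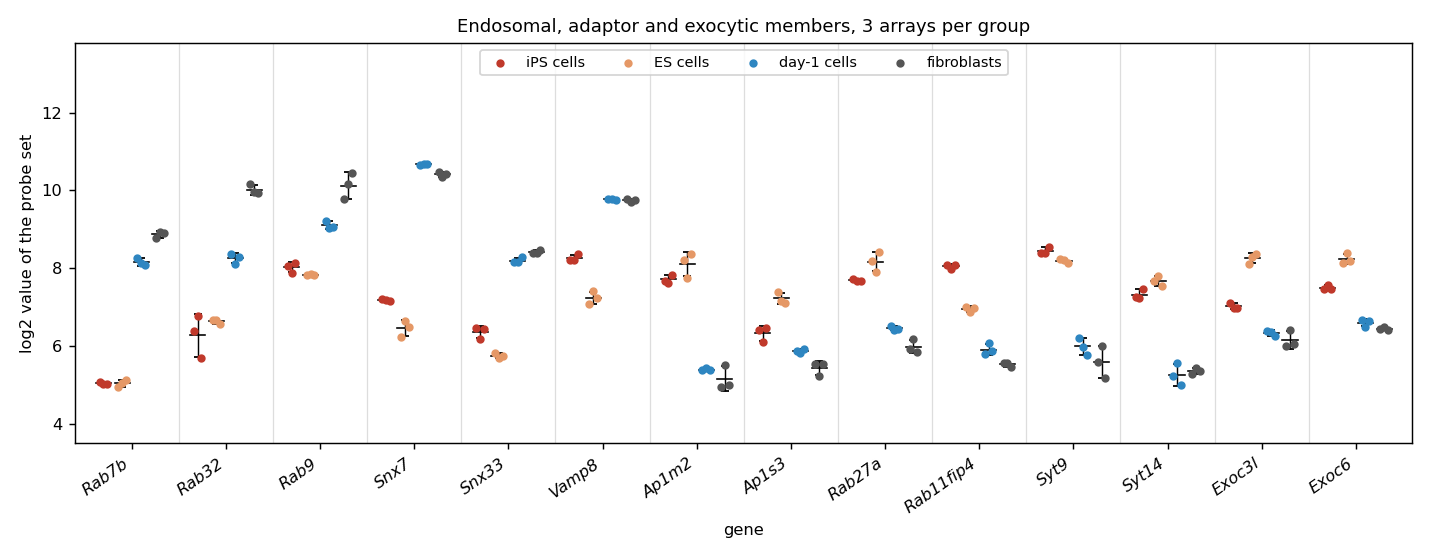
Log2 values (y axis) of 14 members of endosomal sorting, adaptors and exocytosis (x axis) in 3 arrays each of iPS cells, ES cells, day-1 cells and fibroblasts; points are arrays, horizontal bars means and error bars SD, and heights are not comparable between genes. From Rab7b to Vamp8 the pluripotent arrays are low, and from Ap1m2 to Exoc6 they are high, with iPS and ES arrays clearly apart for Snx7, Vamp8, Ap1s3, Rab11fip4, Exoc3l and Exoc6.

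Some related genes with nearly the same name differed in direction. Members were put in 28 groups of close relatives by symbol, after values had been seen, and 6 of these held opposite calls in at least 1 comparison. With centred arrays 4 did (Ap1s, Rab11fip, Rab3 and Rab5), and no like count over other gene families was made. Of the Rab5 genes, GTPases of early endosomes, Rab5a read 11.22, 11.31 and 11.23 in iPS, 11.05, 11.09 and 10.87 in ES and 10.06, 9.97 and 9.96 in day-1 cells, against 10.07, 10.13 and 10.20 in fibroblasts. Rab5c read 9.70, 9.82 and 9.65 in iPS, 9.87, 9.92 and 9.79 in ES and 11.10, 11.01 and 11.01 in day-1 cells, against 11.16, 11.23 and 11.25 in fibroblasts. Rab5a was high in the pluripotent arrays and Rab5c low in them, with no overlap either way; the difference of iPS cells from fibroblasts was 1.12 ± 0.07 (SE) for Rab5a and -1.49 ± 0.07 for Rab5c. Rab5b fell by 1.25 in iPS cells and 1.31 in ES cells, but with centred arrays was not called in either (-0.99 and -0.97). Rab5a is the member of the family whose promoter is shown with the CLEAR element.

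In AP-1, the adaptor of the trans-Golgi, the medium subunits crossed over in ES cells, where Ap1m2 rose by 2.95 and the ubiquitous Ap1m1 fell by 1.02. The small subunits did the same, with Ap1s3 higher by 1.79 and Ap1s1 lower by 1.56. With centred arrays Ap1m1 was not called lower (-0.68). Of the ESCRT ATPases that end each round of membrane budding, Vps4b rose by 1.08 in ES cells and Vps4a fell by 1.08, and Vps4a too was not called with centred arrays (-0.73). Among Rab11 effectors, Rab11fip4 rose in both lines while Rab11fip2 fell by 1.34 in iPS cells and 1.21 in ES cells, not called in ES cells with centred arrays. Rab27b, the relative of Rab27a in secretory cells, averaged 6.08 ± 0.12 in iPS cells, 5.96 ± 0.11 in ES cells and 7.23 ± 0.18 in day-1 cells, against 6.32 ± 0.29 in fibroblasts. It was highest in day-1 cells, and iPS cells differed from these by -1.15 for Rab27b, not called with centred arrays, and by 1.22 for Rab27a.

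**Figure D4:**
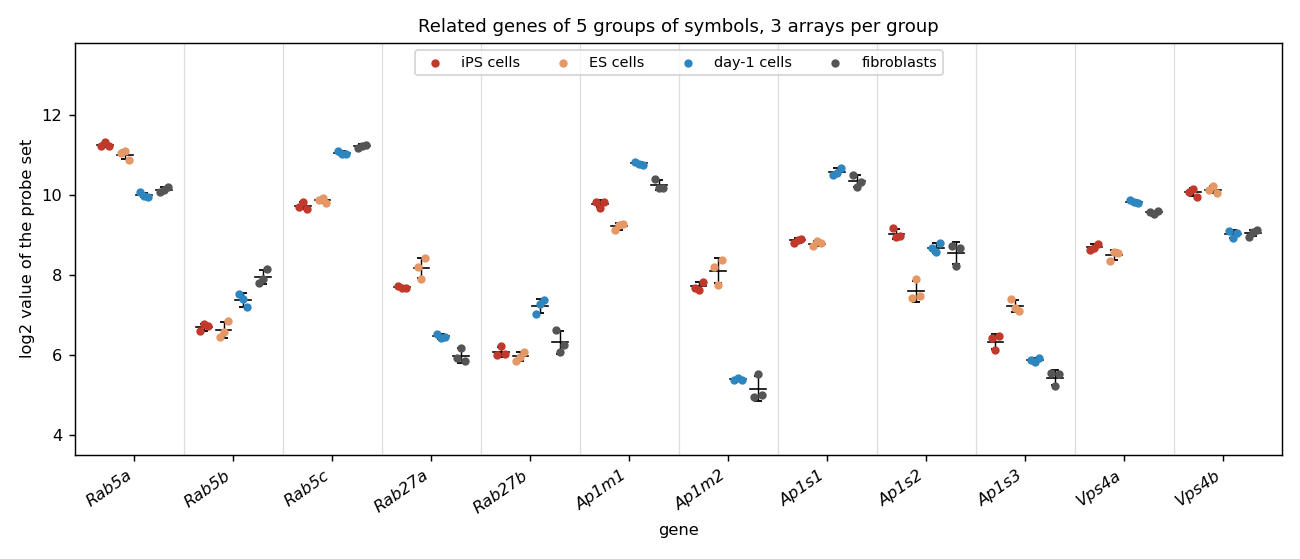
Log2 values (y axis) of 12 members from 5 groups of related symbols (x axis) in 3 arrays each of iPS cells, ES cells, day-1 cells and fibroblasts; points are arrays, horizontal bars means and error bars SD, and heights are not comparable between genes. Rab5a, Rab27a, Ap1m2, Ap1s3 and Vps4b lie higher in the pluripotent arrays, whereas Rab5b, Rab5c, Ap1m1, Ap1s1 and Vps4a lie lower.

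Few trafficking genes differed by 2-fold between day-1 cells and fibroblasts. At an adjusted p under 0.05 with no fold minimum, 34 of the 184 members were higher and 63 lower, beside 2966 and 2483 of the 9539 genes. More members were thus lower than higher, unlike all genes. The 7 calls fell on 5 Rab and 2 Syt genes, and 0 of the 120 members of the other groups were called by limma, with 60 at an unadjusted p under 0.05. Syt17 fell to 6.96, 7.02 and 6.99 in day-1 cells, against 9.13, 8.94 and 9.01 in fibroblasts, a 4.09-fold difference (limma adjusted p = 9.3e-09). Rab32 differed by -1.77 ± 0.20 (SE) on the values given above. Rab30 read 7.17, 6.98 and 7.11 in iPS, 6.80, 6.33 and 7.10 in ES and 7.81, 7.71 and 7.79 in day-1 cells, against 9.11, 9.29 and 9.23 in fibroblasts, and day-1 arrays lay between fibroblasts and the pluripotent lines. Rab9 read 8.06, 7.88 and 8.15 in iPS, 7.83, 7.85 and 7.83 in ES and 9.22, 9.04 and 9.07 in day-1 cells, against 9.77, 10.16 and 10.44 in fibroblasts. Its fibroblast arrays spread the most, and without fibroblast replicate 3 its day-1 difference was -0.86, under the 2-fold limit, as it was without fibroblast replicate 2 or day-1 replicate 2 or 3.

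In the 3 members that rose at day 1, the day-1 arrays lay above those of every other group. All 3 belong to the dimmest 25% of genes, without which 0 members were called higher at day 1. Rab3b, of regulated exocytosis in secretory and nerve cells, read 6.18, 6.18 and 6.30 in iPS, 6.67, 6.73 and 6.65 in ES and 7.24, 7.32 and 7.28 in day-1 cells, against 5.96, 5.76 and 5.97 in fibroblasts. Rab39b, mutated in human X-linked intellectual disability, read 5.91, 5.91 and 5.60 in iPS, 6.46, 5.98 and 6.09 in ES and 8.58, 8.50 and 8.54 in day-1 cells, against 7.41, 7.49 and 7.24 in fibroblasts. Both genes lay above fibroblasts, by 1.38 ± 0.07 and 1.16 ± 0.12 (SE) (limma adjusted p = 1.2e-08 and 5.2e-06). Syt12, a synaptotagmin of synaptic vesicles, read 5.54, 5.71 and 5.28 in iPS, 5.66, 5.53 and 5.77 in ES and 6.42, 6.44 and 6.32 in day-1 cells, against 5.30, 5.27 and 5.60 in fibroblasts. Its difference of 1.01 stood at the limit of a call, and it was not called without day-1 replicate 1 or 2 or fibroblast replicate 1 or 2 (0.95 to 0.99), or after quantile normalization.

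Neural markers were also higher in day-1 cells than in fibroblasts. Of 8 listed, 4 were measured (Nes, Map2, Nefl and Fabp7), with a mean log2 value of 6.77 to 6.92 in iPS cells, 6.77 to 6.84 in ES cells, 8.86 to 8.91 in day-1 cells and 5.98 to 6.36 in fibroblasts. All 4 were called higher in day-1 cells than in fibroblasts. In each pluripotent line 2 of the 4 were called higher and 1 lower than in fibroblasts, whereas Rab39b was lower in both lines than in fibroblasts. Their part in the values of Rab3b, Rab39b and Syt12 was not tested. Fibroblast markers had a mean of 10.49 to 10.62 in day-1 cells and 10.64 to 10.99 in fibroblasts, and 2 of 10, Dcn and Pdgfra, were lower in day-1 cells. Among partner genes, 2 of 26 Rab modifiers fell at day 1, Dennd4a by 1.22 and Rin2 by 1.03, and 0 of the 107 measured genes of the other lists were called by limma, with 44 at an unadjusted p under 0.05.

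**Figure D5:**
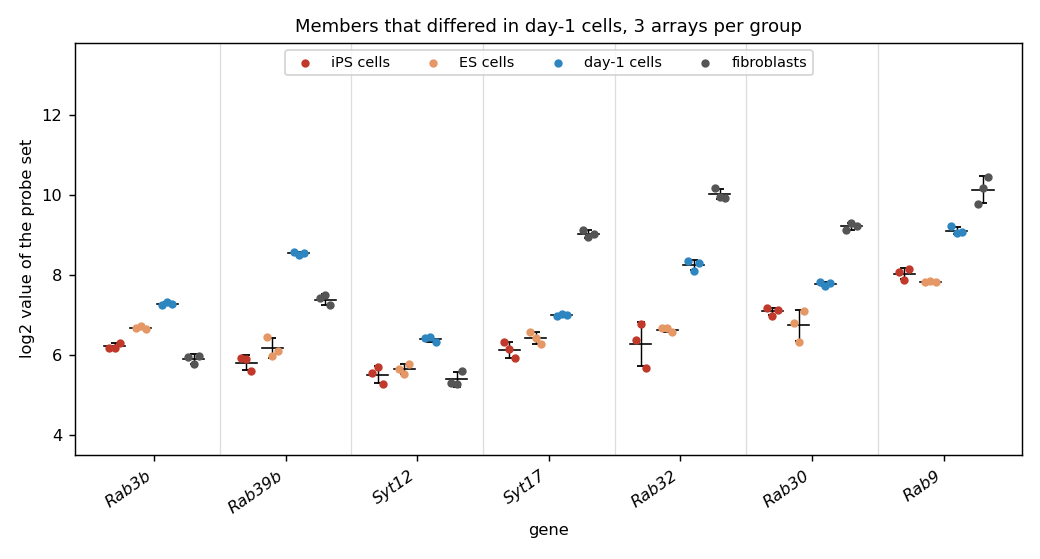
Log2 values (y axis) of the 7 members called between day-1 cells and fibroblasts (x axis) in 3 arrays each of iPS cells, ES cells, day-1 cells and fibroblasts; points are arrays, horizontal bars means and error bars SD. Day-1 arrays are the highest of the 4 groups for Rab3b, Rab39b and Syt12, and for Syt17, Rab32, Rab30 and Rab9 they lie between fibroblasts and the pluripotent lines.

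The iPS and ES lines differed in few members: 6 were higher in iPS cells and 1 lower, or 3.26% and 0.543%, beside 4.44% and 2.45% of all genes. With centred arrays 4 were higher and 1 lower, beside 3.46% and 3.27%. Ap1s2, a small subunit of AP-1, read 9.18, 8.94 and 8.98 in iPS, 7.42, 7.89 and 7.46 in ES and 8.67, 8.56 and 8.81 in day-1 cells, against 8.72, 8.22 and 8.67 in fibroblasts. ES arrays were lowest and iPS arrays highest, a difference of 1.44 ± 0.15 (SE) or 2.72-fold (limma adjusted p = 3.8e-06). Rab11fip5, a Rab11 effector of recycling, read 8.01, 7.97 and 8.13 in iPS, 6.66, 6.88 and 6.57 in ES and 8.07, 7.99 and 7.91 in day-1 cells, against 8.40, 8.27 and 8.21 in fibroblasts; ES arrays stood below all others. Rab38 read 7.34, 7.48 and 7.32 in iPS, 6.11, 5.996 and 6.45 in ES and 6.40, 6.30 and 6.34 in day-1 cells, against 5.99, 6.17 and 5.63 in fibroblasts, where iPS arrays alone were high.

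Rab11fip4, given above, was higher in iPS than in ES cells by 1.10, and Vamp8 by 1.01. Vps26a, a retromer subunit, read 10.001, 10.10 and 9.95 in iPS, 8.86, 9.11 and 9.06 in ES and 9.56, 9.54 and 9.58 in day-1 cells, against 9.59, 9.59 and 9.74 in fibroblasts, with iPS arrays highest and ES arrays lowest, also a difference of 1.01. Vamp8 and Vps26a were not called with centred arrays, nor without ES replicate 1 (0.94 and 0.93), and Vamp8 lost its call without iPS replicate 3 (0.96) and Vps26a without iPS replicate 2 (0.97). Exoc3l was the 1 member lower in iPS cells, at -1.24 ± 0.11 (SE, limma adjusted p = 1.1e-06). The lines also differed in fibroblast markers, whose mean was 8.32 to 8.41 in iPS cells and 7.48 to 7.89 in ES cells. Of the 10, 4 were higher in iPS cells (Col1a1, Col1a2, Col3a1 and Postn) and 1 lower (Dcn). Among partner genes Copz2, a COPI subunit, was higher in iPS cells by 1.51, and the membrane-bending proteins Ehd2 and Cav1 by 1.91 and 2.04. The part of feeder cells in these differences was not tested.

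Between iPS cells and day-1 cells, both of which carry the Oct4 and Tet1 system, 15 members were higher and 59 lower in iPS cells, or 8.15% and 32.1%, beside 17.6% and 26.6% of all genes. With centred arrays 23 were higher and 32 lower, beside 24.5% and 19.8%. This comparison shares its iPS arrays with that against fibroblasts, and the count of lower members, 59 here and 63 there, is not independent of it. Among the members highest in day-1 cells by mean were Tmed5 and Sec16b, given above, and Rab39b, which fell by 2.73 or 6.65-fold in iPS cells relative to day-1 cells. Rab5a, Golga4, Stx3, Rab24 and Rab11fip1 rose by 1.25, 1.64, 1.39, 1.09 and 1.27 in iPS cells relative to day-1 cells. Syt5 and Rab3b, highest in day-1 cells, fell by 1.22 and 1.06, and neither was called with centred arrays.

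Over all 5 comparisons 65 of the 184 members were called in none and 119, or 64.7%, in at least 1, beside 68.1% of all genes. By group mean on the deposited scale, 22 members (11.96%) were highest in iPS cells, 27 (14.7%) in ES cells, 55 (29.9%) in day-1 cells and 80 (43.5%) in fibroblasts. Of all genes, 17.4%, 27.8%, 23.9% and 30.8% were highest in these groups. Endocytic and ESCRT partner genes held 3 that rose and 9 that fell among 30 in iPS cells, and 3 and 12 in ES cells. With centred arrays these were 3 and 8, and 4 and 8. The lower ones are 30.0% and 40.0%, beside 29.6% and 32.1% of all genes (26.7% in each, beside 22.8% and 23.7%, with centred arrays). Chmp4c, an ESCRT-III subunit of abscission, rose by 2.29 and 1.88 and Sorl1, a sorting receptor of endosomes, by 2.22 and 2.56, while Cav1, of caveolae, fell by 2.66 and 4.69. Of 24 genes of fusion and regulated secretion, 5 rose and 6 fell in iPS cells, and 5 and 7 in ES cells (6 and 4, and 8 and 4, with centred arrays). Rims2, a scaffold of the active zone, rose by 2.19 in iPS cells and 2.46 in ES cells, whereas Stxbp4, a syntaxin-binding protein, fell by 2.90 and 2.52.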

How the data were processed

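RNA of 12 mouse cell samples was hybridised to Affymetrix whole-transcript arrays. The deposited table holds log2 values for 10360 probe sets. The labels used here do not say how the authors summarised, normalized and filtered them, and the log2 base was read from the range of the deposited values, 2.43 to 13.64. Scanner files and background were not used here, so signal over background is unknown and 3 arrays per group limit the precision. Gene symbols came from the platform annotation: 9542 probe sets have 1 symbol, 344 several and 474 none, and for genes with several probe sets the one with the highest mean was kept, leaving 9539 genes. 2 probe sets with several symbols that match the rule were not analysed here.

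All 4 groups were fitted together with limma 3.58.1 (lmFit and eBayes, R 4.3.3) on the deposited log2 values, with Benjamini-Hochberg adjustment over all genes and a call at an adjusted p under 0.05 and a log2 difference of at least 1, for 5 comparisons. The procedure was tested on simulated data. Same-numbered arrays did not deviate together (correlations of -0.21 to 0.06, 0 of 18 pairs over 0.1), so the numbers were not taken to pair arrays.

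The members and all gene lists were chosen with earlier results of these data known. Named members are the 10 highest and 10 lowest called ones per comparison whose arrays do not overlap between the groups compared. By symbol group, other called ones are also named. Up to 4 called genes per partner list are named, and for a comparison with few calls, every one. Uncalled members named beside them were chosen after their values were seen, as were the groups of related genes.

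Promoters came from RefSeq (GRCm38.p6). Both strands were searched for 15 motifs: the endoplasmic reticulum stress elements I and II, which hold CCACG, the unfolded protein response element TGACGTGG, the cAMP response element TGACGTCA, the E-box CACGTG, the CLEAR element built on it, the AP-1 site TGACTCA, the octamer ATGCAAAT, the CCAAT box, the Klf box GGGCGTGG, the TEAD site CATTCCA, the ETS site CCGGAAGT, and the ZNF143, NRF1 and YY1 sites. The CCAAT box overlaps the first stress element, and CACGTG the CLEAR element. Tables and plots were made with Python 3.11.15, pandas 2.3.3, numpy 2.4.6 and matplotlib 3.10.9. Alternatives were quantile normalization, arrays centred on a common median, removal of the dimmest 25% of genes, fits of the 2 compared groups alone, a robust prior with trend, the replicate number as block, calls with no minimum fold, treat of limma at 2-fold, every probe set, and leaving out each array.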

Additional observations from a re-analysis of the deposited data

How the results depend on the processing

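Of 74 differences of 44 members named by the rule, 60 kept direction and call under every alternative that gave a value, and 0 reversed. The rule took the largest called differences without overlap between groups, so a reversal was hardly possible. Its absence is no evidence of stability. Without the dimmest 25% of genes, 158 members remained and 27 of the 74 differences had no value. Limma's treat at 2-fold ended 14 calls, among them all 7 between iPS and ES cells and those of Rab39b, Syt12, Rab30 and Rab9 at day 1. It left 1 member higher and 2 lower at day 1, 0 and 0 between iPS and ES cells, and 8 and 34 between iPS and day-1 cells. Of all genes it left 115 and 200, 154 and 72, and 1200 and 1931. Between iPS and ES cells 74 members were higher and 36 lower with no fold minimum, beside 2858 and 2644 of all genes. With no fold minimum, members higher and lower were 34 and 63 at day 1, 43 and 132 in iPS cells against fibroblasts, 46 and 133 in ES cells against fibroblasts, and 48 and 129 in iPS cells against day-1 cells. Of the 9539 genes, 2966 and 2483, 4004 and 4981, 4121 and 4929, and 3897 and 4954 were so called in these comparisons. With arrays centred, members higher were 25 (iPS cells against fibroblasts), 28 (ES cells against fibroblasts) and 23 (iPS cells against day-1 cells), and members lower 45 in ES cells against fibroblasts and 32 in iPS cells against day-1 cells. Quantile normalization gave 53 lower in ES cells against fibroblasts, 38 in iPS cells against day-1 cells and 2 in iPS cells against ES cells. Of all genes it gave 2486, 2087 and 292. Without the dimmest 25% of genes, which tests fewer members, 0 were higher at day 1, 9 in iPS cells and 9 in ES cells against fibroblasts, and 0 were lower in iPS than in ES cells. Of the 7154 genes left, 271, 1629, 1780 and 143 were so called. The cause of the other changes was not tested. A replicate block, the numbers not pairing the arrays, gave 3 higher and 4 lower at day 1 and the same counts as without it in the other comparisons.

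Leaving out single arrays gave 2 to 3 members higher and 3 to 6 lower at day 1, 14 to 17 and 60 to 63 in iPS cells against fibroblasts, 15 to 16 and 75 to 82 in ES cells against fibroblasts, 4 to 7 and 1 to 1 in iPS against ES cells, and 13 to 16 and 57 to 62 in iPS against day-1 cells. The scale of the deposited table, whose normalization is not given, thus sets how many members count as lower in the pluripotent lines, and differences close to 2-fold (Syt12, Rab9, Vamp8, Vps26a) depend on single arrays. For the pluripotent lines, strain, line, passage, medium and feeders cannot be told apart from group.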
